A study of Drosophila melanogaster with 4 samples.

Results

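The genes described here belong to the machinery of membrane trafficking and vesicle fusion, measured in heads of Drosophila melanogaster males fed strychnine. They were chosen by name alone: spots whose single gene symbol began with Vps, Rab, Sec or Syx and a digit, with Snap, with AP-1, AP-2 or AP-3, or with Arf, or was alphaSnap or gammaSnap1. The name pattern took 55 genes on the array, and 20 of them had a log2 ratio on replicates 1, 2 and 4. These 20 are the members, out of 3995 units tested, of which 2023 were named genes and 1972 were pairs of neighbouring spots without a gene name. Each member was read by 1 pair of adjacent spots, 40 spots in all.

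Strychnine, a convulsant alkaloid from plants, acts in vertebrates by blocking the glycine receptor. Unmated males of the wild-type strain Oregon-R, 3 to 4 days old, were kept for 7 days either on normal food or on the same food with 3.33 mg/ml of strychnine, 30 flies to a vial at the start. Per the labels both sides shared strain, sex, housing and normal food as the base. The age label is the same for all pools, but the growth protocol of replicate 1's control flies gives 2 to 3 days in vials before treatment, where that of the treated flies gives 3 to 4. Replicate 1 supplies the shared set, and the part of this difference in its ratios was not tested. RNA came from pools of whole heads, so a ratio cannot tell fewer cells of a type from less RNA per cell. The study had 1 group, with 4 two-colour cDNA arrays, on each of which a treated pool was set against a control pool. Cy5 labelled the treated RNA on replicates 1 and 2, and the dyes were exchanged on replicates 3 and 4.

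Cells move proteins and lipids between compartments in vesicles. Coat proteins such as COPII bend the membrane and pick the cargo, Rab GTPases and tethers such as the exocyst bring a vesicle to its target, and SNARE proteins on both membranes zip together to fuse them. The ATPase NSF and its adaptor alpha-SNAP then take the SNARE complexes apart, a step known in flies from paralytic mutants of the NSF gene comt. On the endosomal side, ESCRT complexes sort receptors into multivesicular bodies, and retromer returns cargo from endosomes. In the fly head these steps serve synaptic vesicle release and the turnover of photoreceptor membrane.

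Replicates 1 and 3, labelled as a dye exchange, had identical columns at 7643 of 7643 common spots. They were counted once, as the shared set, which left 3 distinct sets of values: the shared set, replicate 2 and replicate 4. For 4 members (Rab27, Vps15, Vps29 and Vps37B) replicate 3 had no value, and the shared set is replicate 1 alone. Between 7647 and 9725 of 27648 spots held a value per array. The labels do not say whether a positive log2 ratio means more Cy5 or more treated RNA, nor the log base, which was read as 2. No value is therefore called a rise or a fall after strychnine, and ratios are described as positive or negative, after each column was centred on its median. Among markers of the labelled tissue, 5 of 22 listed photoreceptor genes had values in all 3 sets (Galphaq, inaD, rdgA, rdgB and trpl), as did the neuronal genes Sh and nSyb and the glial gene Gs2. A ratio gives no level, so these show only that the spots passed the authors' filter.

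Of the 20 trafficking genes, 3 differed from 0 in the mean of the 3 sets (limma, Benjamini-Hochberg adjusted p under 0.05). The genes alphaSnap and Vps36 were negative by a little over 2-fold and Sec24AB was positive by about the same factor. If a positive value means more Cy5, an effect of treatment cancels between replicates 2 and 4 in this mean. The labels do not settle the reading, so the 3 calls are not shown to be effects of strychnine. Across all units 10.2% passed, 1.93% negative and 8.29% positive, and among named genes alone 6.97% passed (1.98% negative and 4.99% positive). At an unadjusted p under 0.05, 8 members stood beside 34.4% of all units. The members' share of 15.0% rests on 3 genes, and their median mean of -0.16 (log2) stood beside -0.0257 for all units and -0.0653 for named genes. A negative sign in every set was found for 6 members and a positive one for 4, or 50.0% with 1 sign, where 55.2% of all units had 1 sign (26.9% negative and 28.4% positive). Among named genes 28.6% were negative and 25.7% positive throughout. The group as a whole was therefore close to the background of the arrays, and the account below is of single genes. With the columns as deposited the median of all units lay at -0.40, a shift of -0.37 from the centred one, and 0 units passed (limma, 1493 at an unadjusted p under 0.05).

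**Figure D1:**
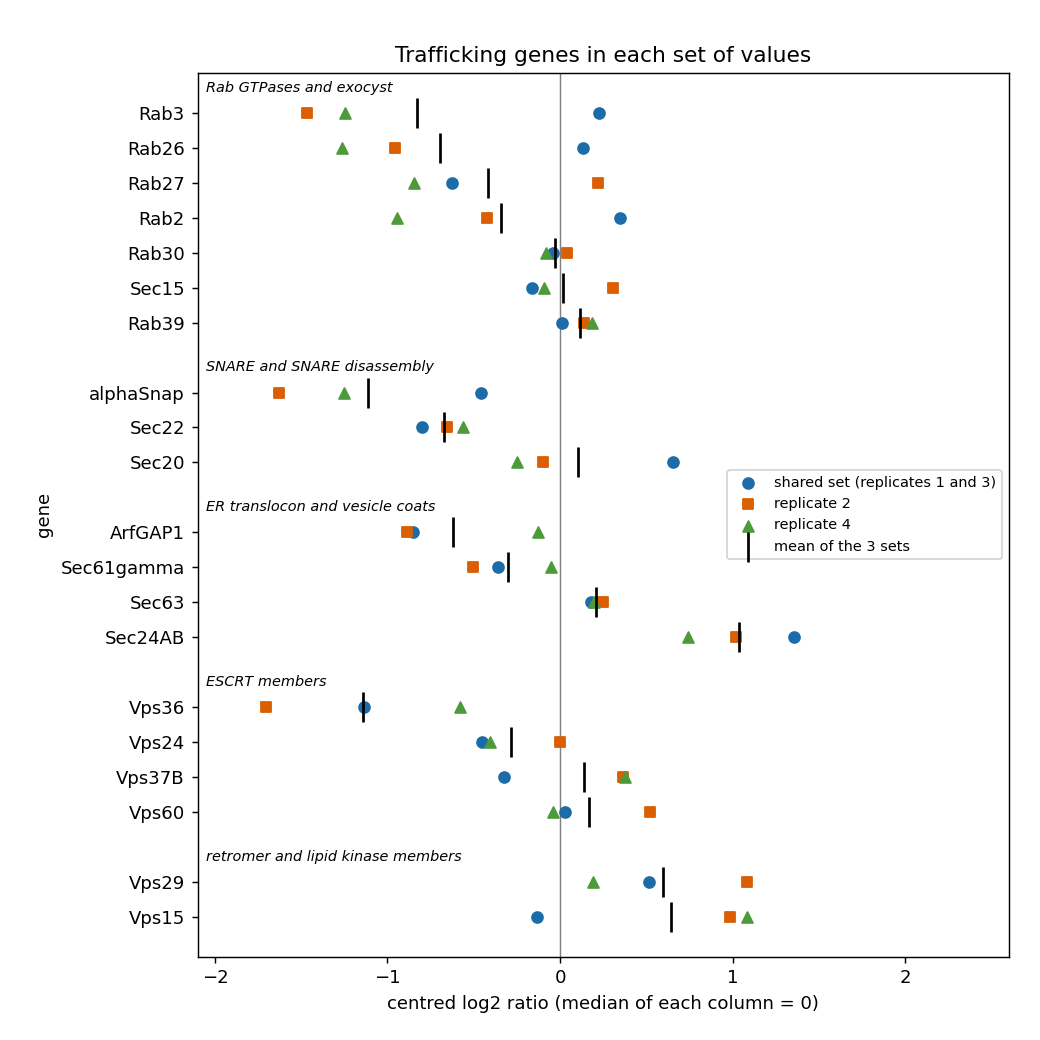
Centred log2 ratio of each of the 20 trafficking genes (rows, grouped by role) in the shared set (circles), replicate 2 (squares) and replicate 4 (triangles), with the mean of the 3 sets as a vertical bar. The 3 sets of Vps36, alphaSnap and Sec22 all lie below 0 and those of Sec24AB above 0, while Rab3, Rab26 and Rab2 are below 0 on replicates 2 and 4 and above 0 in the shared set.

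The first of the SNARE genes, alphaSnap, encodes the adaptor through which NSF takes SNARE complexes apart. In the shared set its centred log2 ratio was -0.46, against -1.63 for replicate 2 and -1.25 for replicate 4. All 3 sets were negative, the shared set least. The mean was -1.11 ± 0.60 (SD, n = 3 sets), a 2.17-fold difference, with a 95% interval of -1.73 to -0.50 and a limma adjusted p of 0.0473. This interval and those below use the SE from limma (0.26 for alphaSnap), which borrows variance from all units. They do not reflect the spread of a gene's 3 sets alone. Its place among all 3995 units was the 37th lowest. The adjacent spots of alphaSnap read -0.82 and -2.44 on replicate 2, a difference of 1.62, so the low value there rests mainly on 1 spot. On replicate 4 they read -1.29 and -1.22 and in the shared set -0.54 and -0.38.

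Sec22, the R-SNARE of vesicles that run between endoplasmic reticulum and Golgi, had the most even negative ratios among the members. It read -0.80 in the shared set, -0.65 for replicate 2 and -0.57 for replicate 4. The sets lay within 0.24 of each other and none reached 0. The mean was -0.67 ± 0.12 (SD, n = 3 sets; 95% interval -1.12 to -0.22), which did not pass over all units (limma adjusted p = 0.0631). Sec20, a SNARE of retrograde transport from Golgi to endoplasmic reticulum, read 0.65 in the shared set, -0.098 for replicate 2 and -0.25 for replicate 4. Its sets took both signs, and its mean was 0.10 ± 0.48 (SD, n = 3 sets; limma adjusted p = 0.786).

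Among genes of the vesicle coats and the translocon, Sec24AB was the 1 positive member past the threshold. It encodes a Sec24 subunit of COPII, the coat that selects cargo for export from the endoplasmic reticulum. In the shared set its log2 ratio was 1.36, with 1.02 for replicate 2 and 0.74 for replicate 4. Adjacent spots differed by at most 0.13 on any set. The mean was 1.04 ± 0.31 (SD, n = 3 sets), or 2.06-fold, with a 95% interval of 0.54 to 1.53 and a limma adjusted p of 0.0428. Since positive calls were more frequent than negative ones on these arrays, Sec24AB ranked only 221st from the top.

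ArfGAP1 encodes a GTPase-activating protein for Arf1, the switch of the COPI coat. It read -0.85 in the shared set, -0.89 for replicate 2 and -0.13 for replicate 4, with a mean of -0.62 ± 0.43 (SD, n = 3 sets; limma adjusted p = 0.107). The shared set and replicate 2 were close to each other and replicate 4 was nearer to 0. Sec61gamma, a subunit of the channel through which new proteins enter the endoplasmic reticulum, read -0.36, -0.50 and -0.0505 on the same sets. Its mean of -0.30 ± 0.23 (SD, n = 3 sets) was not past the threshold (limma adjusted p = 0.315). Sec63, which recruits the chaperone BiP to that channel, read 0.18, 0.25 and 0.20. These were the closest sets of any member (mean 0.21 ± 0.0363, SD, n = 3 sets), and the 95% interval of -0.23 to 0.65 reached from a small negative to a moderate positive ratio. Coat and translocon genes thus took both signs, 2 negative and 2 positive in all 3 sets.

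None of the 6 Rab genes passed, and 5 of the 6 had sets of opposite sign. Rab GTPases mark membranes and recruit tethers and motors. Rab3, the Rab of synaptic vesicles, read 0.22 in the shared set, -1.47 for replicate 2 and -1.24 for replicate 4. Its adjacent spots differed by at most 0.21 on any set, far less than the gap between the shared set and either other array. The mean of Rab3 was -0.83 ± 0.92 (SD, n = 3 sets; 95% interval -1.63 to -0.0318; limma adjusted p = 0.134), the widest spread of any member. Rab26, which acts on secretory and synaptic vesicles in mammals, read 0.13, -0.96 and -1.27 on the same sets, with a mean of -0.70 ± 0.73 (SD, n = 3 sets; limma adjusted p = 0.143). Rab2, a Rab of the early secretory pathway, read 0.35, -0.42 and -0.94, with a mean of -0.34 ± 0.65 (SD, n = 3 sets; limma adjusted p = 0.406).

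These 3 Rab genes and Sec20 were positive in the shared set and negative on both other arrays, 4 of 20 members (20.0%) where 7.78% of all units showed that order of signs. On replicates 2 and 4 together, Rab3 and alphaSnap were both under -1, 2 of 20 members (10.0%) against 1.33% of all units. Both orders were noticed after the values were seen and were not tested. After the correction for position on the slide given below, only Rab3 of these 4 genes kept that order of signs. Rab3 was then no longer under -1 on replicates 2 and 4. The mean of replicates 2 and 4 alone was -1.36 for Rab3, -1.11 for Rab26 and -0.68 for Rab2, with limma adjusted p of 0.106, 0.109 and 0.167. In that fit 1 of 3995 units passed (0.025%), no member among them.

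Of the other Rab genes, Rab30 and Rab39 lay nearer to 0, and the mean of Rab27 lay between those of Rab26 and Rab2. Rab27, a Rab of regulated secretion in mammals, was negative in the shared set (-0.63) and on replicate 4 (-0.84) and positive on replicate 2 (0.22), signs that Rab30 had too, much nearer to 0. Its mean was -0.42 ± 0.56 (SD, n = 3 sets; limma adjusted p = 0.281). Rab30, a Rab of the Golgi, read -0.039, 0.042 and -0.0835 in the shared set and on replicates 2 and 4. Rab39 read 0.013, 0.14 and 0.19. For these 2 genes the 95% intervals of the mean were -0.47 to 0.42 and -0.33 to 0.56. Sec15, a subunit of the exocyst that binds Rab proteins and tethers secretory vesicles, read -0.16, 0.31 and -0.0905. Its mean was 0.0185, with a 95% interval of -0.46 to 0.50, so differences within that range in either direction were not excluded.

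**Figure D2:**
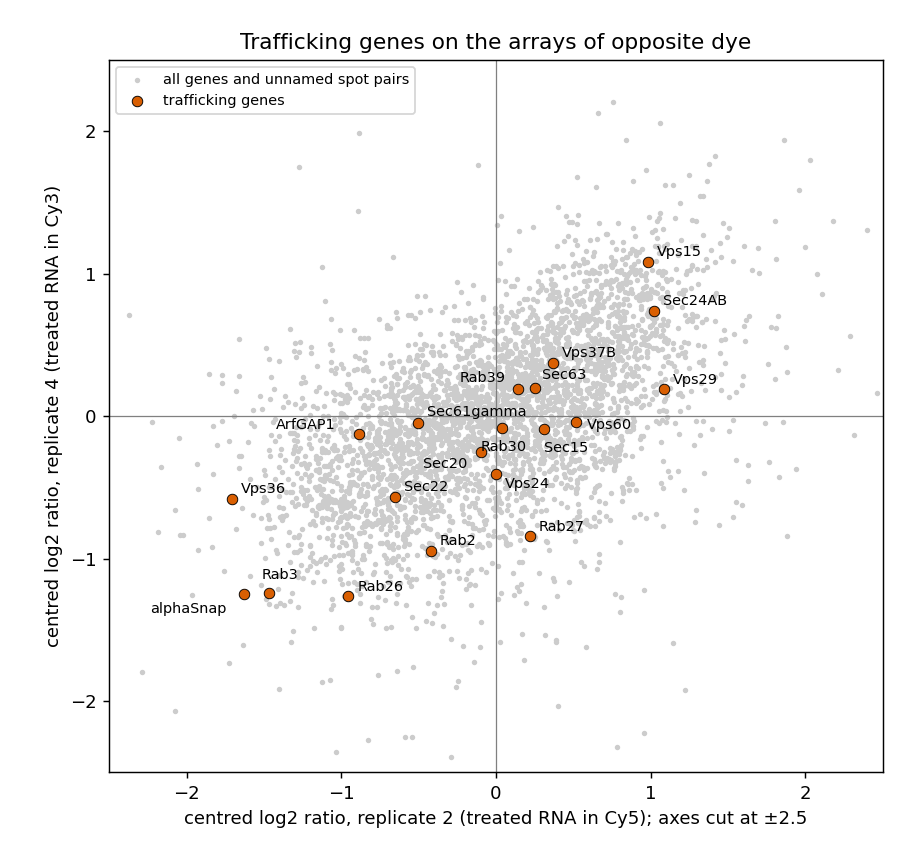
Centred log2 ratio on replicate 2 (horizontal axis, treated RNA in Cy5) against replicate 4 (vertical axis, treated RNA in Cy3) for all units (grey) and the 20 trafficking genes (orange, named), with 33 units outside the axes. The members run from alphaSnap, Rab3 and Rab26 at the lower left to Vps15 and Sec24AB at the upper right, and Rab27 lies apart below the diagonal.

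Of the endosomal genes, Vps36 had the lowest mean of all members. It encodes a subunit of ESCRT-II, which acts in the sorting of ubiquitinated receptors into multivesicular bodies. It was negative in each set, with a log2 ratio of -1.14 in the shared set, -1.70 for replicate 2 and -0.58 for replicate 4. The mean was -1.14 ± 0.56 (SD, n = 3 sets), a 2.20-fold difference, with a 95% interval of -1.74 to -0.54 and a limma adjusted p of 0.0455. It was the 31st lowest of 3995 units. Adjacent spots read -0.73 and -1.55 in the shared set, -1.86 and -1.55 on replicate 2, and -0.42 and -0.74 on replicate 4.

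The other 3 ESCRT genes did not pass, and their means lay nearer to 0 than that of Vps36. Vps24, an ESCRT-III subunit that takes part in membrane scission, read -0.45 in the shared set, -0.0010 for replicate 2 and -0.41 for replicate 4. It counts as negative in all 3 sets only because of that value just under 0, and its mean was -0.29 ± 0.25 (SD, n = 3 sets; limma adjusted p = 0.347). Vps37B, of ESCRT-I, was at -0.32, 0.37 and 0.38, with a mean of 0.14 (limma adjusted p = 0.685). Vps60, an accessory protein of ESCRT-III, was at 0.028, 0.52 and -0.038, with a mean of 0.17 (limma adjusted p = 0.593). No test of the difference between ESCRT genes was run.

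Vps29 and Vps15 had the most positive means after Sec24AB. Vps29, a core subunit of retromer, read 0.52 in the shared set, 1.09 for replicate 2 and 0.19 for replicate 4, with a mean of 0.60 ± 0.45 (SD, n = 3 sets; limma adjusted p = 0.122). Vps15, the regulatory subunit of the lipid kinase Vps34 that acts in autophagy and endosomal sorting, read -0.13, 0.98 and 1.08. Its mean was 0.64 ± 0.68 (SD, n = 3 sets; limma adjusted p = 0.152). Its shared set averaged adjacent spots at 0.79 and -1.06, a gap of 1.85, the largest among the members. On replicates 2 and 4 the spots of Vps15 were all positive, at 1.01 and 0.96 and at 0.80 and 1.37.

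**Figure D3:**
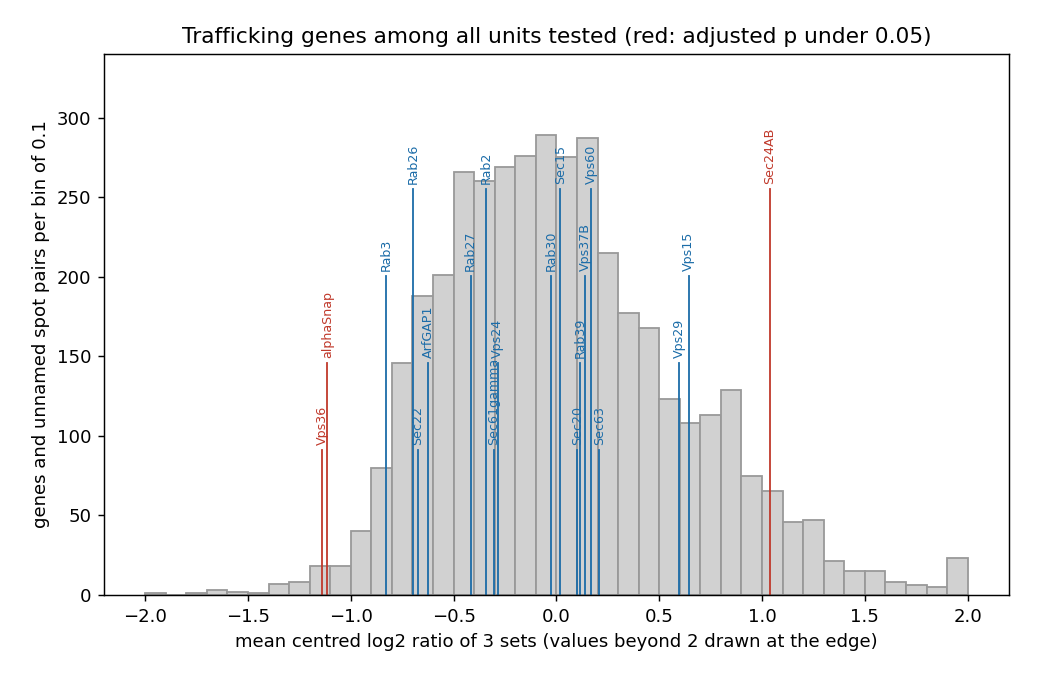
Histogram of the mean centred log2 ratio over 3 sets for all 3995 units in bins of 0.1 (20 units beyond 2 are drawn at the edge), with the 20 trafficking genes as vertical lines, red where the adjusted p is under 0.05. Vps36 at -1.14 and alphaSnap at -1.11 stand in the thin left tail, and Sec24AB at 1.04 in the broader right tail.

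The 3 calls were close to the threshold. With replicate 2 left out, the means were -0.86 for Vps36, -0.86 for alphaSnap and 1.05 for Sec24AB, with adjusted p of 0.182, 0.209 and 0.151. With replicate 4 left out the means were -1.42, -1.04 and 1.19, and the adjusted p 0.0517, 0.0935 and 0.0528. Leaving out replicate 1 puts the identical column of replicate 3 in its place, centred on that column's own median, and lowers the number of units tested to 3172. The means were then -1.12, -1.09 and 1.06, with adjusted p of 0.0584, 0.0648 and 0.0541. Without the shared set, whose labels disagree, their means were -1.14, -1.44 and 0.88, as large or nearly so, with adjusted p of 0.115, 0.106 and 0.118. With 3 sets, an exact test over signs cannot give a two-sided p below 0.25.

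Adjacent spots of the members correlated with r of 0.68 in the shared set, 0.90 for replicate 2 and 0.95 for replicate 4 (20 pairs), beside 0.82, 0.83 and 0.73 over 4028 pairs of the whole array. Spots of a pair share the slide, the block and the DNA printed. The median difference between adjacent spots was 0.10 for members and 0.15 for all pairs. Only alphaSnap and Vps15 differed by over 1 on any set, 2 of 20 members, where 7.0% of all pairs did. Across the 20 genes, Pearson's r between replicates 2 and 4 was 0.79 and Spearman's rho 0.81, beside 0.47 and 0.54 over all units. The shared set correlated with r of 0.51 with replicate 2 and 0.28 with replicate 4. These are descriptions across genes that share arrays, and genes are not independent replicates.

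The median log2 ratio also differed between the 48 blocks of 24 by 24 spots into which the spot numbers divide, and the members lay in 14 of them. Across the 20 genes, the mean correlated with r of 0.69 with the mean of the block medians (rho 0.63). Vps36 and Rab26 lay in block 36, whose medians were -0.48 in the shared set, -1.04 for replicate 2 and -0.58 for replicate 4. Vps36 lay below its block in the first 2 of these sets and level with it on replicate 4. The block of Rab3 had medians of -0.30, -0.63 and -0.63. In contrast, alphaSnap lay in block 15, whose medians were 0.13, 0.12 and 0.18, and Sec24AB in block 20, at -0.10, 0.20 and 0.30.

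Subtracting block medians and a smooth surface within blocks left 0 of 3995 units past the threshold (0.0%; limma, 817 or 20.5% at an unadjusted p under 0.05). The mean of alphaSnap was then -0.97 ± 0.22 (SE; adjusted p = 0.136), with sets at -0.42, -1.45 and -1.04. Sec22 was at -0.64 ± 0.14 (SE; adjusted p = 0.134), nearly the value before correction. Sec24AB was at 0.60 ± 0.14 (SE; adjusted p = 0.137), with sets at 0.73, 0.34 and 0.73. Vps36 was at -0.36 ± 0.19 (SE; adjusted p = 0.366), and its replicate 4 turned to 0.12. The means of alphaSnap and Sec22 thus moved by less than their SE, and those of Vps36 and Sec24AB by more.

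Position-corrected means of 12 members kept their sign and those of 8 changed it. For Rab3 the mean went to -0.28, for Rab26 to 0.0148, for Rab2 to 0.19 and for Rab27 to 0.0787. In the shared set and on replicates 2 and 4, Rab3 then read 0.28, -0.77 and -0.36. Rab26 read 0.67, 0.19 and -0.82, and Rab2 read 0.49, 0.22 and -0.14, both positive on replicate 2. Vps29 went from 0.60 to -0.0576 and Vps15 to 0.35. Sec20 went to -0.45, and Vps24 and Rab30 to -0.43 and -0.34, each of these 3 negative in all sets. The median over the 20 members was -0.12. After this correction 6 members had negative values throughout and 2 had positive ones, beside 22.5% and 23.0% of all units (45.4% with 1 sign).

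**Figure D4:**
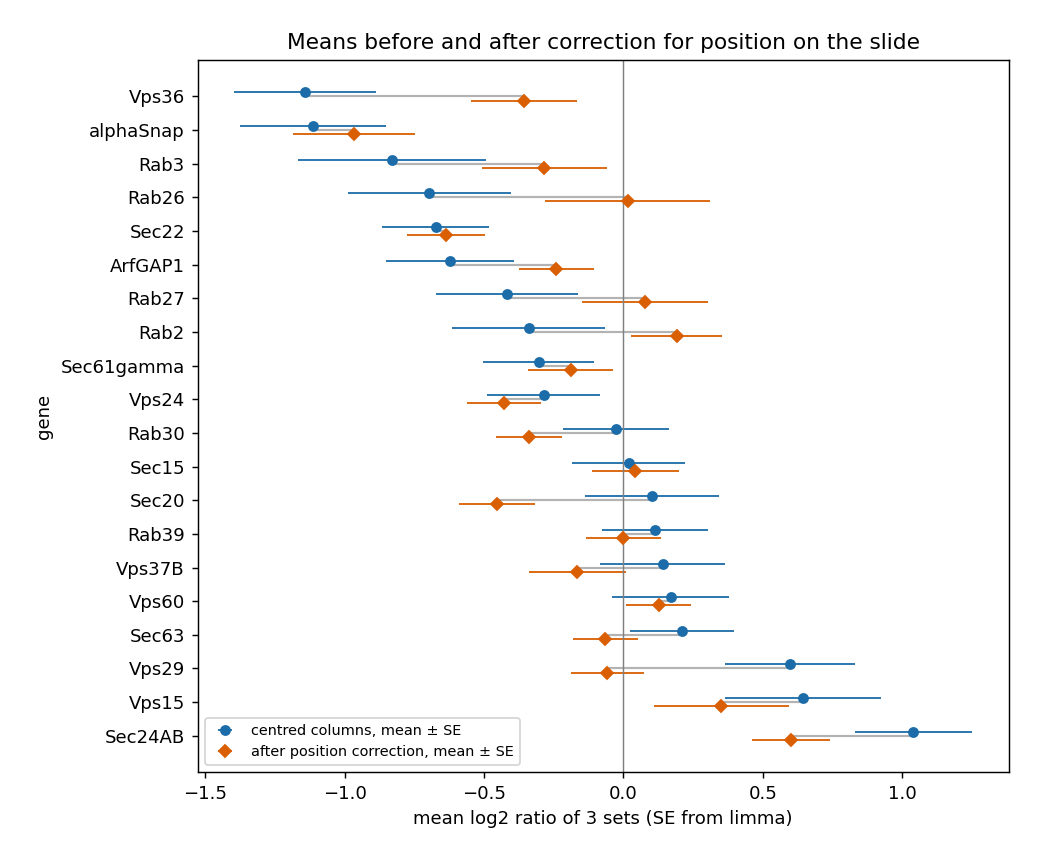
Mean log2 ratio ± SE from limma over 3 sets for each trafficking gene with centred columns (circles) and after correction for position on the slide (diamonds). alphaSnap and Sec22 hardly move, Vps36, Rab3, Rab26 and Vps29 move toward 0, and Sec20 moves from 0.10 to -0.45.

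If a positive value means more Cy5, the effect of treatment is the part of the ratio that changes sign with the dye, or replicate 2 minus replicate 4 divided by 2. Under that reading no trafficking gene passed, where 0.35% of all units did (14 of 3995, and 89, or 2.23%, at an unadjusted p under 0.05). The members' values ran from -0.44 for Vps36 to 0.65 for Rab27, each with an SE of 0.469 pooled over all units, and 0 of the 20 were under an unadjusted p of 0.05 (limma). The lowest adjusted p among them was 0.9998. That SE comes from how far the shared set lay from the mean of replicates 2 and 4, not from repeats of the contrast. Their median was 0.17, beside 0.10 for all units. With each column centred, Vps36 was at -0.56 ± 0.24, Rab27 at 0.53 ± 0.25 and Vps29 at 0.45 ± 0.24 (SE), and again no member passed (limma, lowest adjusted p 0.967). Vps36, which had the lowest mean, was also the lowest member here. By contrast, alphaSnap was at -0.19 ± 0.34 and Rab3 at -0.11 ± 0.46 (SE), since their values were alike on the arrays of opposite dye.

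**Figure D5:**
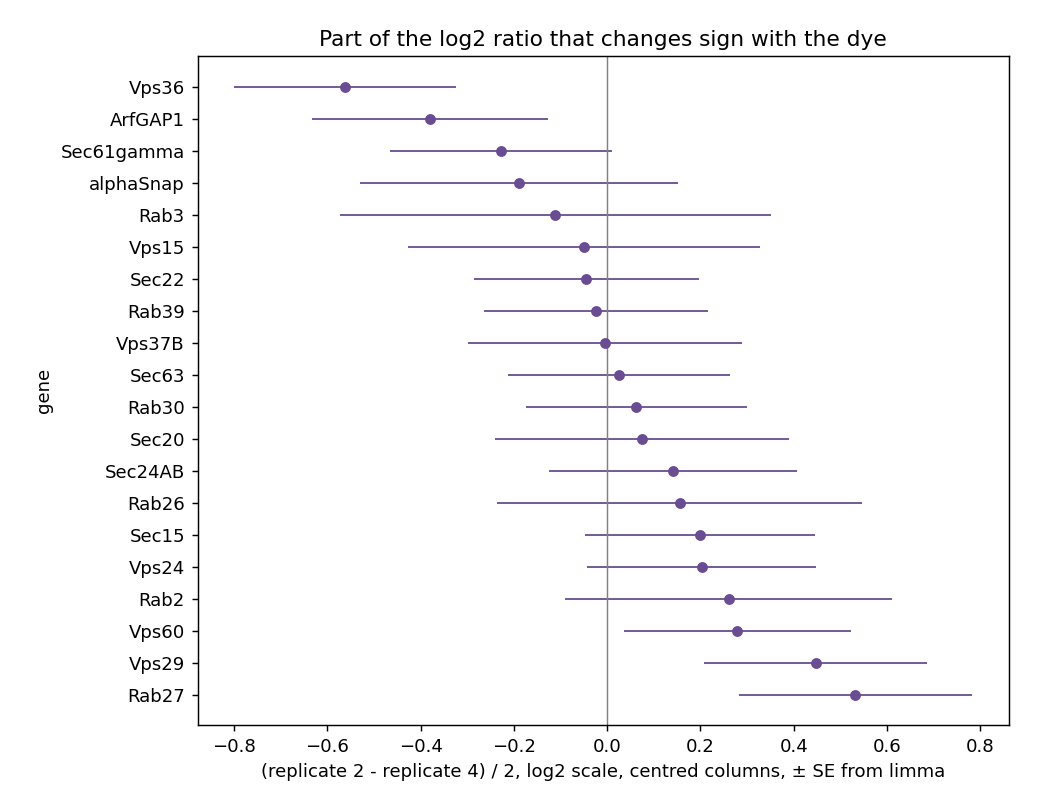
Replicate 2 minus replicate 4, divided by 2, on the log2 scale with centred columns, for each trafficking gene with its SE from limma. The values run from -0.56 for Vps36 to 0.53 for Rab27, and those of alphaSnap, Rab3, Sec22 and Vps15 have error bars that span 0.

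Among other genes of the pathway, from lists of coats, tethers, SNARE regulators, ESCRT, sorting nexins and Rab regulators, 21 of 151 listed genes had values in all 3 sets. Of these 1 was positive and 1 negative past the threshold, a share close to the 10.2% of all units, so the count is no result about the list. Their median was -0.035. Cog8, a subunit of the COG complex that tethers vesicles at the Golgi, read 1.67 in the shared set, 0.87 for replicate 2 and 1.15 for replicate 4. Its mean was 1.23 ± 0.41 (SD, n = 3 sets; limma adjusted p = 0.0395), and 0.49 after correction for position. TBC1D16, whose TBC domain marks Rab GTPase-activating proteins, read -0.87, -0.92 and -0.59. Its mean was -0.80 ± 0.18 (SD, n = 3 sets; limma adjusted p = 0.0488), and -0.44 after that correction. Both had 1 sign in 3 of 3 sets.

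No other listed gene passed. The nearest by size with 1 sign in all sets were SrpRalpha, of the signal recognition particle receptor, at a mean of 0.81 (adjusted p = 0.0621), and Spase22-23, of the signal peptidase, at -0.73 (adjusted p = 0.0881). Clathrin light chain (Clc) was at -0.69 (adjusted p = 0.0621), and 0.0749 after correction for position. The HOPS subunit car was at 0.68 (adjusted p = 0.0642), the exocyst subunit Exo70 at 0.61 (adjusted p = 0.0808), ALiX, an ESCRT partner, at 0.58 (adjusted p = 0.0953), the ESCRT-I subunit TSG101 at -0.26, the Golgi tether Golgin84 at -0.36 and the Arf exchange factor siz at 0.0947. After the correction for position SrpRalpha was at 0.19, Spase22-23 at -0.20, car at 0.37, Exo70 at 0.49 and ALiX at 0.24. TSG101 was then at -0.0764, Golgin84 at -0.0636 and siz at -0.0293. Both synaptic genes named here had sets of both signs before that correction. The synaptic vesicle SNARE nSyb read 0.17, -1.21 and 0.011, and unc-13, which primes synaptic vesicles, read 1.17, 0.53 and -0.51. For nSyb the low value lay on replicate 2 alone, unlike Rab3, which was low on replicates 2 and 4.

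Markers of other tissues took both signs. Positive past the threshold were 2 of 4 measured gut enzyme genes (yip7 and Jon65Aiii), 1 of 3 male reproductive genes (Mst77F) and 1 of 5 fat body genes (Fbp2), where 8.29% of all units were positive calls, and none of these 12 genes was a negative call. The means ran from -0.58 to 1.56 for the gut list (2 of 4 below 0), from -0.57 to 0.86 for the male list (1 of 3 below 0) and from -1.63 to 0.76 for the fat body list (3 of 5 below 0). Of the head markers, the means ran from -0.44 to 0.75 for the photoreceptor list (3 of 5 below 0). They ran from -0.67 to -0.34 for the 2 neuronal genes, and the glial gene Gs2 was at -0.72. None of these head markers was a call, and the part of any marker in the members' ratios was not tested. The 35 genes that the name pattern took but that had no complete spot were not members. Of these, 30 had no value on replicates 1, 2 or 4, among them gammaSnap1, Snap29, Vps35 and Rab35, and 3 had a value on 1 of these arrays. A value in 2 sets was present for AP-1gamma, at 0.21 in the shared set and 0.30 on replicate 4, and for Vps16A, at -0.42 in the shared set and -0.59 on replicate 2. No AP gene was therefore among the members. The 55 genes that matched held no Syx symbol.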

How the data were processed

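The authors deposited log ratios, taken here to be log2 values, made with GenePix Pro 6.0 and ratio normalization in Acuity 4.0, as the series' design text states. The authors ignored dim spots in normalization and kept spots with under 3% of saturated pixels, signal over noise of 3 or more and a regression R2 from 0.6 upward. The sources used here do not give the log base, centring or direction of these ratios. For replicates 1 to 4 the medians of the deposited columns were -0.121, -0.379, -0.179 and -0.621. Precision is limited by the number of arrays.

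The platform annotation gave 1 gene symbol for 15116 of 27648 spots, several for 102 and none for 12430. RefSeq's gene table (Release 6) held the gene IDs of 14894 spots and altered 0 symbols. No coordinates are printed because the annotation names no build. Spots with values on replicates 1, 2 and 4 (8130) were centred on each column's median and averaged by gene, or by adjacent pair where unnamed. The identical columns of replicates 1 and 3 entered once. The mean of the 3 sets was tested against 0, two-sided, with limma 3.58.1 in R 4.3.3 (lmFit and eBayes, Benjamini-Hochberg over 3995 units, threshold 0.05). The dye-exchange contrast used the values as deposited, with a dye term. The shared set, whose labels disagree on the dye, was coded 0 in it. The SE and p-values of the contrast therefore rest on how far the shared set lay from the mean of replicates 2 and 4. They do not measure a spread between repeats of the contrast. Nothing says that the pools of a replicate shared more than the array. The p-values of the mean rest on the spread between 3 sets and on variance that eBayes borrows from all units. They do not reflect the spread of a gene's 3 sets alone. Position was corrected by block medians and a robust local linear surface (span 0.4) in blocks with at least 30 values. The fits were tested on simulated data. Values in every set are given for members past the threshold or with 1 sign in all sets, by the size of the mean (up to 10 per sign), or with adjacent spots over 1 apart, and were added for the other members after they were seen. Of the other trafficking genes, those past the threshold and up to 4 per list by size with 1 sign in all sets were named, and nSyb and unc-13 were added after their values were seen. Members, lists and tests were chosen with earlier results of these data known.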

Additional observations from a re-analysis of the deposited data

How the results depend on the processing

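No paired analysis was possible because no groups share replicate numbers: there is 1 group, and the pairing of treated with control RNA is already within each array's ratio. The 408 units past the threshold in the mean, and the 3 members and 2 other trafficking genes among them, became 0, 0 and 0 with the values as deposited and with the position correction. They became 1, 0 and 0 without the shared set, an alternative added after seeing the data, as were those for the other trafficking genes. With scale normalization and with single spots as units, 0 units and 0 members passed (limma, 1359 and 2644 at an unadjusted p under 0.05). Named genes alone gave 223 units, spots beyond 3 left out 661 units, and a threshold of 0.10 gave 1043. All 4 columns as labelled gave 1092 units and 5 members (Sec22 and ArfGAP1 added). That setting counts the identical columns of replicates 1 and 3 as separate arrays, so its higher counts are not added evidence. Leaving out replicate 1, 2 or 4 gave 84, 0 and 35 units and no member in any of them, with a members' median of -0.28 to -0.0186. The -0.28, without replicate 1, is over 16 members, since Rab27, Vps15, Vps29 and Vps37B had no value on replicate 3. Replicate 3 is not in the main fit, so leaving it out returned the same 408 units and 3 members by construction. That median, -0.16, was -0.53 as deposited and -0.0849 with all 4 columns.

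The dye-exchange contrast called 14 units, and 0 with each column centred, with the position correction, with all 4 columns, and with spots beyond 3 left out, and between 4 and 13 without replicate 1 or 3. The members' median of 0.17 there was 0.0443 centred, 0.026 position-corrected and 0.0828 with all 4 columns, and -0.0411 to 0.27 without replicate 1 or 3, so it reversed without replicate 1. With all 4 columns and without replicate 1 the median is over 16 members, so it is not of the same genes.

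Single genes kept their direction and side of the threshold in 287 values, lost a call in 24, gained one in 3 and reversed in 22. The 287 include the run without replicate 3, which is the main fit itself. Vps36, alphaSnap and Sec24AB each kept their call in 9 settings and lost it in 8. Of the gained calls, that of ArfGAP1 and 1 of the 2 of Sec22 came with all 4 columns, which count identical values as separate arrays. Reversed as deposited were Sec15 (-0.36), Sec20 (-0.27), Rab39 (-0.26), Vps37B (-0.23), Vps60 (-0.20) and Sec63 (-0.16). Position-corrected, they were Rab26 (0.0148), Rab27 (0.0787), Rab2 (0.19), Sec20 (-0.45), Rab39 (-8.2e-05), Vps37B (-0.17), Sec63 (-0.0647) and Vps29 (-0.0576). Sec15 reversed with all 4 columns (-0.012), quantile (-0.0068) and scale normalization (-0.0048), and ran from -0.13 to 0.073 with 1 replicate left out. Over the same leave-outs Rab30 ran from -0.061 to 0.0015 and Vps60 from -0.005 to 0.27. Rab30 reversed when centred on named genes (0.0012), and Sec20 without the shared set (-0.17). The cause of these changes was not tested.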
